A study of Mus musculus with 79 samples.

Results

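Neurotrophins are secreted growth factors that support the survival, wiring and synaptic plasticity of neurons. Brain-derived neurotrophic factor (Bdnf) signals through the receptor tyrosine kinase TrkB (Ntrk2), and neurotrophin-3 (Ntf3) signals mainly through TrkC (Ntrk3). The p75 receptor (Ngfr) binds all neurotrophins, and with sortilin (Sort1) it binds their uncleaved precursors; sortilin also sorts the BDNF precursor inside the cell. In striatum, BDNF protein is known to be delivered largely along the axons of cortical neurons, while the striatal neurons carry TrkB. These 6 genes, 2 ligands and 4 receptors, were chosen by name, and all 6 were present among the 25899 genes of the deposited table.

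The 79 libraries hold mRNA attached to ribosomes of mouse neurons marked by a dopamine receptor promoter. All mice carried, as heterozygotes on a C57BL/6J background, a bacterial artificial chromosome transgene that places eGFP fused to the ribosomal protein L10a under the promoter of the dopamine D1a receptor or of the D2 receptor. Tagged ribosomes were pulled down with an antibody against GFP from homogenates of dorsal striatum, ventral striatum (nucleus accumbens) or prefrontal cortex. The 5 groups were D1 dorsal striatum (15 libraries), D2 dorsal striatum (16), D1 ventral striatum (15), D2 ventral striatum (14) and D1 prefrontal cortex (19). Every library pooled tissue of 3 mice, with both sexes in each pool except 2 prefrontal pools whose sexes the labels give only in part; the labels name no treatment and no age. The transgene reports every cell that uses the promoter, so the D2 groups can include cholinergic interneurons, and the prefrontal group holds cortical neurons and not striatal ones.

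Levels are given in CPM, read counts scaled to a common library total. Reads in genes ran from 7.35 to 30.8 M per library (median 17.5 M), and 1 read was worth 0.0124 to 0.0466 CPM. The labelled receptor matched its own transcript in striatum. Median Drd1a was 232 and 156 CPM in D1 dorsal and ventral striatum and 12.1 and 15.1 CPM in the D2 groups, while median Drd2 was 1146 and 625 CPM in the D2 groups and 5.53 and 7.98 CPM in the D1 groups. The D1 prefrontal libraries had only 16.7 CPM of Drd1a at the median. Markers of other cell types were present to different degrees. The summed CPM of 5 cortical projection neuron markers (among them Slc17a7, Neurod6, Neurod2 and Tbr1), none at a median of 0 in any group, had a median of 639 in D1 prefrontal cortex, 101 in D1 dorsal striatum, 66.0 in D1 ventral striatum, 8.17 in D2 dorsal striatum and 11.3 in D2 ventral striatum. Library names begin with letter codes of unstated meaning, and libraries coded EM made up 11, 8, 11, 8 and 15 of the 5 groups in the order above.

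**Figure D1:**
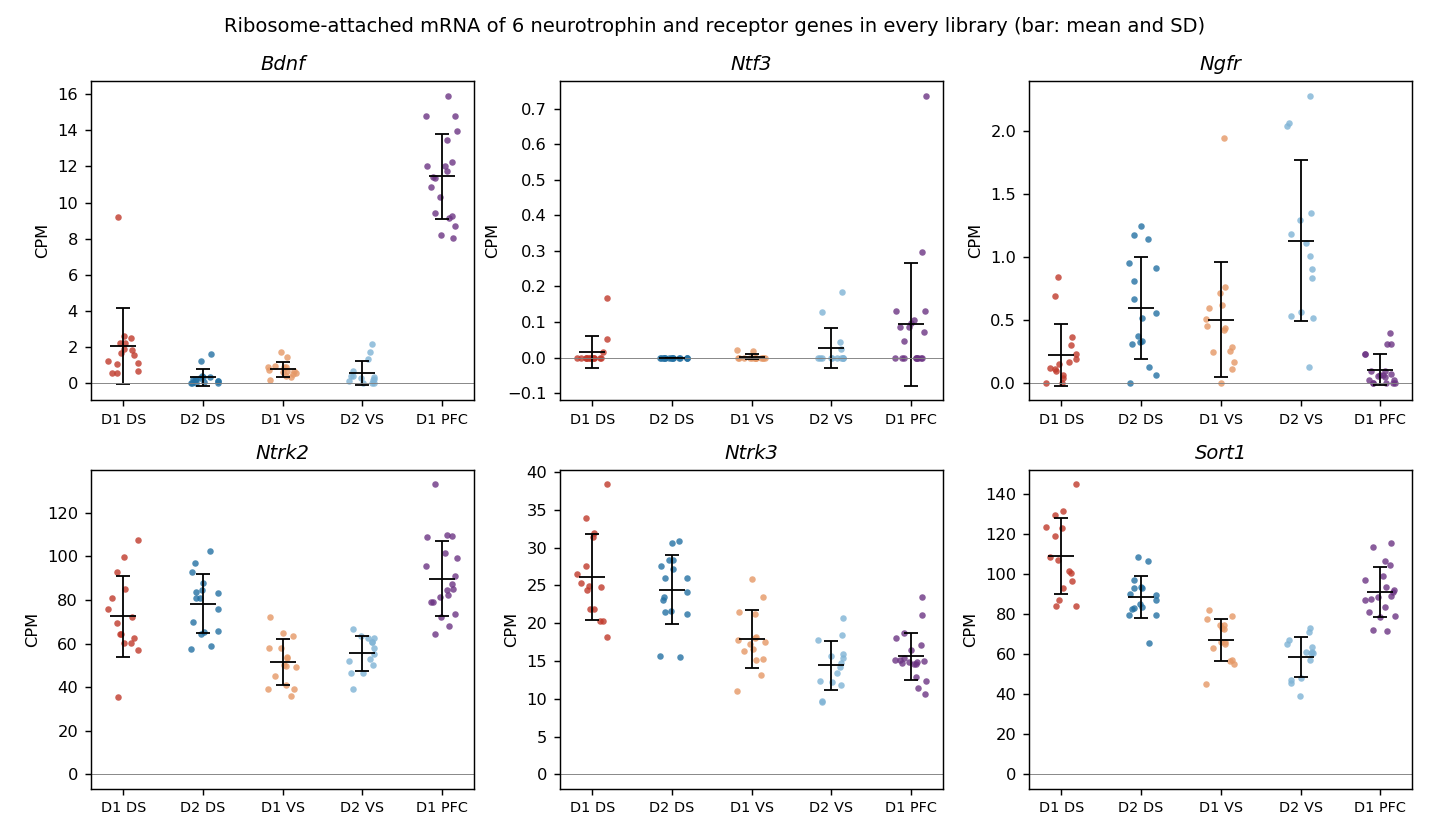
CPM of each gene (y axes, linear) in every library, by group (x axes: DS, dorsal striatum; VS, ventral striatum; PFC, prefrontal cortex), with the mean and SD as bars. Bdnf stands at 8.02 to 15.92 CPM in prefrontal cortex and at 0 to 2.60 CPM in striatum apart from 1 D1 dorsal striatum library at 9.19 CPM, and Ntrk2, Ntrk3 and Sort1 are higher in dorsal than in ventral striatum.

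The ligand Bdnf was carried on ribosomes mainly in the D1 prefrontal cortex libraries. There it ran from 8.02 to 15.92 CPM with a median of 11.39 (11.5 ± 2.35, mean ± SD, n = 19). In D1 dorsal striatum it ran from 0.54 to 9.19 CPM with a median of 1.69 (2.07 ± 2.08, n = 15), and in D1 ventral striatum from 0.21 to 1.74 CPM with a median of 0.68 (0.78 ± 0.40, n = 15). The D2 groups were lower still. D2 dorsal striatum ran from 0 to 1.62 CPM with a median of 0.21 (0.33 ± 0.46, n = 16), and D2 ventral striatum from 0 to 2.18 CPM with a median of 0.33 (0.57 ± 0.68, n = 14). In each D2 group 3 libraries had no Bdnf read, which at their depth allows up to 3 reads, or 0.0387 to 0.14 CPM over the D2 dorsal striatum libraries.

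All 19 prefrontal libraries lay above every D1 ventral striatum library, and 15 of 19 lay above every D1 dorsal striatum library. Bdnf was called higher in prefrontal cortex than in D1 dorsal striatum by 2.44 on the log2(CPM + 0.5) scale (SE 0.18, limma adjusted p = 5.96e-15) and than in D1 ventral striatum by 3.26 (SE 0.12, adjusted p = 5.01e-25). This scale understates differences of genes with low CPM. In bulk pull-downs of this kind, fewer cells that carry a transcript and less of it per cell cannot be told apart.

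In the comparisons of 2 striatal groups Bdnf failed the abundance filter (at least 1 CPM in as many libraries as the smaller group), so these differences come from the fit without that filter. In dorsal striatum, D1 libraries exceeded D2 libraries in Bdnf by 1.52 (SE 0.25, adjusted p = 2.94e-05), and 8 of 15 D1 libraries lay above every D2 library. In ventral striatum the same difference was 0.42 (SE 0.23, adjusted p = 0.174), with 0 of 15 D1 libraries above every D2 library. Among D1 libraries, dorsal striatum was higher than ventral by 0.82 (SE 0.23, adjusted p = 0.00796), and among D2 libraries the dorsal minus ventral difference was -0.28 (SE 0.25, adjusted p = 0.503). The difference between the D1 minus D2 differences of the 2 striatal regions was 1.10 (SE 0.34, adjusted p = 0.0587) in the filtered fit of all 4 striatal groups, where Bdnf passed the filter, and missed the threshold. Bdnf entered that fit mainly through D1 dorsal striatum, where 12 of 15 libraries reached 1 CPM. In D2 dorsal, D1 ventral and D2 ventral striatum 2 of 16, 2 of 15 and 3 of 14 did. Its place in the fit thus follows in part from the striatal group where it was highest. The interaction was called in 3 of 15 settings. These were a pseudocount of 1 (0.83, adjusted p = 0.0486), median-ratio scaling (1.12, adjusted p = 0.0481) and the name code as a covariate (1.04, adjusted p = 0.0439).

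Cortical projection neuron markers moved with Bdnf across the groups. As a percentage of the prefrontal median, the marker sum was 15.8% in D1 dorsal striatum, 1.28% in D2 dorsal striatum, 10.3% in D1 ventral striatum and 1.77% in D2 ventral striatum. Bdnf was 14.9%, 1.84%, 5.97% and 2.88% of its prefrontal median in the same order. The marker sum ran from 33.2 to 140 CPM in D1 dorsal striatum and from 1.56 to 37.1 CPM in D2 dorsal striatum, so it nearly separated the groups. With the marker sum as a covariate the Bdnf difference between D1 and D2 dorsal striatum was -0.17 (SE 0.50, adjusted p = 0.973), and that between D1 dorsal and ventral striatum was 0.55 (SE 0.23, adjusted p = 0.0853). The part of the markers in the striatal Bdnf differences was not tested beyond this and the relations within groups that follow.

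Within groups, Bdnf and the marker sum, both as log2(CPM + 0.5), varied together in the D2 libraries. Pearson's r was 0.68 in D2 dorsal striatum (permutation p = 0.00455, adjusted p = 0.0341 over 15 relations; Spearman's rho 0.72, permutation p = 0.00246, adjusted p = 0.0351) and 0.70 in D2 ventral striatum (permutation p = 0.00364, adjusted p = 0.0341; rho 0.72, permutation p = 0.00468, adjusted p = 0.0351). Without the 2 libraries farthest from the median marker sum, r was 0.58 and 0.62, and among the 8 EM libraries of each group it was 0.61 and 0.55. In D1 dorsal striatum r was 0.51 and rho 0.62, in D1 ventral striatum 0.55 and 0.44 and in prefrontal cortex 0.40 and 0.48; their adjusted permutation p-values were 0.192, 0.173 and 0.231 for r and 0.0754, 0.217 and 0.138 for rho. Without the 2 farthest libraries these r were 0.22, 0.44 and 0.56, and among EM libraries 0.25, 0.51 and 0.53.

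The D1 dorsal striatum library with 9.19 CPM (281 Bdnf reads, replicate 13) stood apart from the next highest of its group at 2.60 CPM. Its cortical marker sum of 86.4 CPM was below the group median. The same library had the lowest Ntrk2 level of its group, 35.4 CPM. Without it, the D1 minus D2 difference of Bdnf in dorsal striatum was 1.36 (SE 0.21, adjusted p = 1.02e-05), and Bdnf was higher in prefrontal cortex than in D1 dorsal striatum by 2.60 in the fit without the filter (SE 0.14, adjusted p = 5.24e-17).

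**Figure D2:**
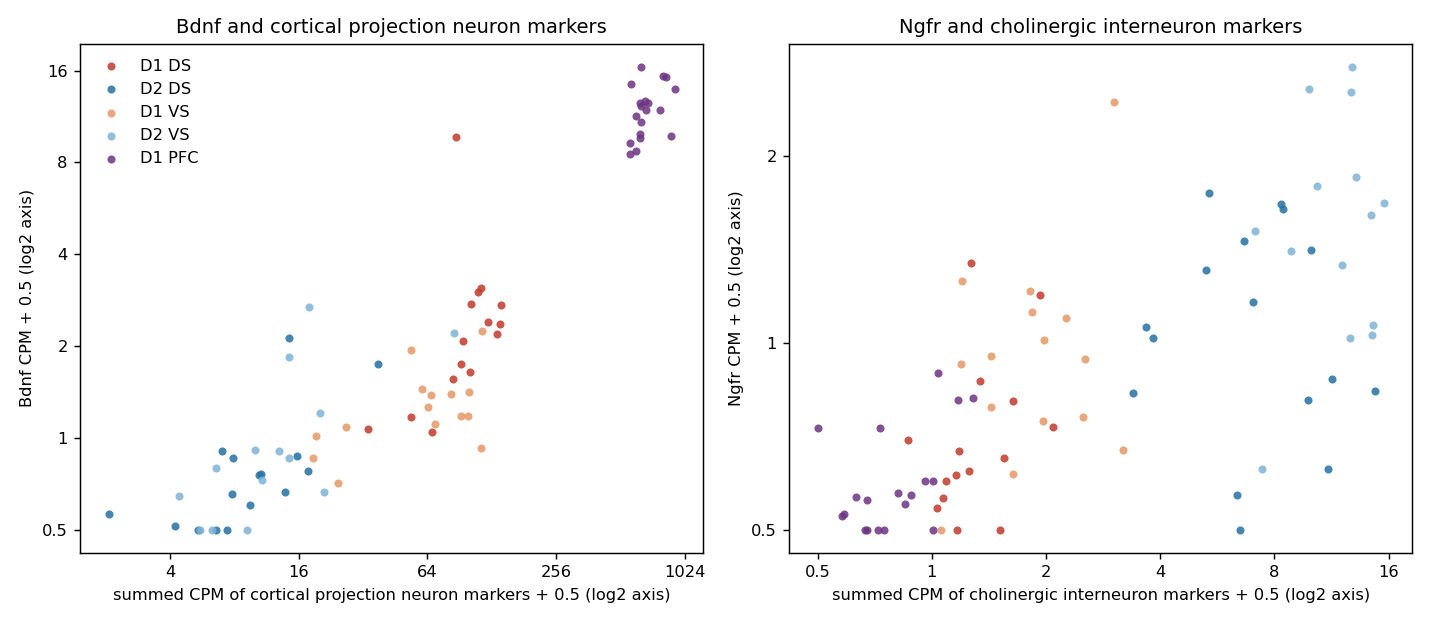
Left, Bdnf CPM against the summed CPM of 5 cortical projection neuron markers; right, Ngfr CPM against the summed CPM of 3 cholinergic interneuron markers, 1 point per library, 0.5 CPM added, log2 axes. The prefrontal libraries form a cluster of their own at the upper right of the Bdnf panel, with marker sums from 565 to 922 CPM, and 1 D1 dorsal striatum library at 9.19 CPM of Bdnf lies above the other striatal libraries.

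Bdnf lies at chr2:109674700-109727007 on the plus strand of GRCm38 and has 11 annotated protein-coding transcripts, which start from several promoters and share the exon that encodes the protein. Gene-level counts do not separate these promoters. Of the 7 Bdnf promoter windows in RefSeq's GRCm38.p6 table (250 bases before to 50 after a start), 1 held the letters TCACGTCA, a variant of the cyclic AMP response element bound by CREB, searched on both strands. The 100 bases before that start are shown because the element is known from activity-dependent transcription of Bdnf. Use of this promoter was not measured in any group. Capitals mark the motif, which begins 38 bases before the start.
Bdnf promoter, chr2:109692336-109692435, plus strand: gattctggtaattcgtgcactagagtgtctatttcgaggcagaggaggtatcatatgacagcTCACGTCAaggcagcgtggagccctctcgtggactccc
The same letters were in 145 of 32851 promoter windows of all genes (0.441%) and in 0 of the 4 windows that the table gives for Ntf3 (2), Ngfr (1) and Ntrk2 (1). A match describes the sequence and shows no binding.

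Among 10 regulators of Bdnf transcription, 4 of 9 tested were called between prefrontal cortex and D1 dorsal striatum, 2 higher and 2 lower, where 54.8% of all genes were called. The comparison with D1 ventral striatum gave 6 calls among 9, 1 higher and 5 lower, beside 62.8% of all genes. Mef2c, a transcription factor of activity-dependent genes, was higher in prefrontal cortex, at 360 ± 46.7 CPM (SD, n = 19) against 134 ± 15.2 (n = 15) and 122 ± 9.83 (n = 15) in D1 dorsal and ventral striatum, log2 differences of 1.42 (SE 0.07, adjusted p = 4.46e-20) and 1.55 (SE 0.06, adjusted p = 1.55e-23). Carf, a calcium-response factor first named for Bdnf, was lower there, at 5.22 ± 1.53 CPM against 9.11 ± 1.77 and 10.5 ± 1.30 (log2 differences -0.81 and -1.02). Crtc1, a coactivator of CREB, exceeded its D2 level in D1 ventral striatum, at 99.7 ± 12.1 against 60.7 ± 21.4 CPM (0.78, SE 0.13, adjusted p = 1.35e-05), and Usf1 was higher at 7.56 ± 1.73 against 4.79 ± 3.10 CPM. Creb1 itself was lower in D1 than in D2 dorsal striatum, at 21.8 ± 4.56 against 27.1 ± 4.46 CPM (-0.32, SE 0.10, adjusted p = 0.0217).

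Ntf3, the other ligand, was close to undetected. Its reads summed to 11 in D1 dorsal striatum, 0 in D2 dorsal striatum, 2 in D1 ventral striatum, 18 in D2 ventral striatum and 66 in prefrontal cortex. It had no read in 12 of 15, 16 of 16, 13 of 15, 10 of 14 and 9 of 19 libraries in the same order. The highest striatal library held 9 reads (0.184 CPM, D2 ventral striatum), and the highest prefrontal library 21 reads (0.737 CPM). Ntf3 failed the filter in every comparison. Without the filter limma called it only for prefrontal cortex over D1 ventral striatum, by 0.20 (SE 0.08, adjusted p = 0.0391), where 10 of 19 prefrontal libraries lay above every ventral one. That call was lost with a pseudocount of 1 (0.11, adjusted p = 0.0551). Its position is chr6:126101412-126166910, minus strand.

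Ntf5, which encodes neurotrophin-4, another TrkB ligand, was likewise scarce. It had no read in 13 of 19 prefrontal libraries, in 14 of 15 in each D1 striatal group, in 15 of 16 D2 dorsal libraries and in all 14 D2 ventral libraries.

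Ntrk2, the TrkB receptor of BDNF, was abundant in every group. In D1 dorsal striatum it ran from 35.4 to 107 CPM with a median of 69.6 (72.5 ± 18.5, n = 15), and in D2 dorsal striatum from 57.6 to 102 CPM with a median of 81.0 (78.2 ± 13.5, n = 16). In D1 ventral striatum it ran from 35.8 to 72.4 CPM with a median of 50.1 (51.5 ± 10.6, n = 15), and in D2 ventral striatum from 39.3 to 66.9 CPM with a median of 56.5 (55.5 ± 7.97, n = 14). D1 prefrontal cortex ran from 64.3 to 133 CPM with a median of 84.9 (89.8 ± 17.3, n = 19). The prefrontal and dorsal groups overlapped widely, and the ventral groups were the lowest.

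Ntrk2 levels of dorsal striatum exceeded those of ventral striatum, by 0.47 among D1 libraries (SE 0.12, adjusted p = 0.00232) and by 0.49 among D2 libraries (SE 0.09, adjusted p = 0.000111). In D2, 11 of 16 dorsal libraries lay above every ventral library, and in D1, 6 of 15. Prefrontal cortex was higher than D1 ventral striatum by 0.80 (SE 0.09, adjusted p = 9.18e-10) and higher than D1 dorsal striatum by 0.33 (SE 0.11, adjusted p = 0.0105). The second of these was not called by edgeR's quasi-likelihood test on the recovered reads (0.22, adjusted p = 0.0953). D1 and D2 libraries were not called different for Ntrk2, with -0.13 in dorsal striatum (SE 0.11, adjusted p = 0.405) and -0.12 in ventral striatum (SE 0.10, adjusted p = 0.320). Astrocytes also carry Ntrk2 mRNA; the summed CPM of 6 astrocyte markers had medians of 112 in prefrontal cortex, 26.4 in D1 dorsal, 15.9 in D2 dorsal, 22.6 in D1 ventral and 24.0 in D2 ventral libraries. Within groups Ntrk2 and that sum had correlations between -0.15 (D2 dorsal striatum) and 0.24 (prefrontal cortex), with adjusted permutation p-values of 0.548 to 0.799 over the same 15 relations. Among EM libraries alone r was 0.75 in prefrontal cortex (n = 15), 0.40 in D1 dorsal and 0.27 in D1 ventral striatum (n = 11 each), and -0.57 and -0.32 in D2 dorsal and ventral striatum (n = 8 each), given without a test. The part of astrocyte RNA in the prefrontal Ntrk2 level was not tested further.

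Ntrk2 spans chr13:58806569-59133970 on the plus strand, with 7 protein-coding transcripts of 5 coding lengths between 1398 and 2463 bases. The shorter forms lack the kinase domain and are the main form of astrocytes. Ntrk3 spans chr7:78175959-78738012 on the minus strand, with 6 protein-coding transcripts of 1836 to 2592 coding bases, again with and without a kinase domain. The deposited values are per gene, so the full and truncated receptors cannot be told apart.

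Ntrk3, the TrkC receptor of neurotrophin-3, was highest in dorsal striatum. D1 dorsal libraries ran from 18.1 to 38.4 CPM with a median of 24.9 (26.1 ± 5.66, n = 15), and D2 dorsal libraries from 15.6 to 30.8 CPM with a median of 25.0 (24.4 ± 4.60, n = 16). D1 ventral libraries ran from 11.1 to 25.9 CPM with a median of 17.5 (17.9 ± 3.84, n = 15), and D2 ventral libraries from 9.53 to 20.6 CPM with a median of 14.5 (14.4 ± 3.22, n = 14). Prefrontal libraries ran from 10.6 to 23.4 CPM with a median of 15.01 (15.6 ± 3.12, n = 19). In contrast to Ntrk2, the prefrontal group stood with the ventral groups and not with the dorsal ones.

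For Ntrk3 dorsal striatum exceeded ventral striatum by 0.53 in D1 (SE 0.11, adjusted p = 0.000195) and by 0.75 in D2 (SE 0.12, adjusted p = 3.85e-06). In D2, 14 of 16 dorsal libraries lay above every ventral library. It was lower in prefrontal cortex than in D1 dorsal striatum, with a log2 difference of -0.72 (SE 0.10, adjusted p = 4.71e-08), and 10 of 15 dorsal libraries lay above every prefrontal one. Prefrontal cortex and D1 ventral striatum were not called different (-0.19, SE 0.10, adjusted p = 0.0899). In ventral striatum Ntrk3 of D1 libraries exceeded that of D2 by 0.30 (SE 0.12, adjusted p = 0.0297), and 4 of 15 D1 libraries lay above every D2 library. That call was lost when the summed CPM of each column (0.46, adjusted p = 0.0509) or the cortical marker sum (0.43, adjusted p = 0.104) entered as a covariate. In dorsal striatum the receptor difference was 0.09 (SE 0.11, adjusted p = 0.561).

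Sort1, the sortilin gene, followed the same dorsal over ventral order with the clearest separation. D1 dorsal libraries ran from 84.2 to 145 CPM with a median of 107 (109 ± 18.9, n = 15), and D1 ventral libraries from 45.0 to 82.0 CPM with a median of 66.3 (67.2 ± 10.5, n = 15). D2 dorsal libraries ran from 65.8 to 109 CPM with a median of 88.5 (88.7 ± 10.5, n = 16), and D2 ventral libraries from 39.3 to 73.2 CPM with a median of 61.0 (58.7 ± 10.1, n = 14). Prefrontal libraries ran from 71.8 to 115 CPM with a median of 88.9 (91.2 ± 12.6, n = 19). All 15 D1 dorsal libraries lay above every D1 ventral library, and 15 of 16 D2 dorsal libraries lay above every D2 ventral library.

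The dorsal minus ventral difference of Sort1 was 0.69 in D1 (SE 0.09, adjusted p = 1.34e-07) and 0.60 in D2 (SE 0.09, adjusted p = 1.64e-06). Sort1 was higher in prefrontal cortex than in D1 ventral striatum by 0.44 (SE 0.08, adjusted p = 3.04e-06) and lower than in D1 dorsal striatum, with a difference of -0.25 (SE 0.08, adjusted p = 0.00808). D1 exceeded D2 in dorsal striatum by 0.29 (SE 0.08, adjusted p = 0.0103), and 6 of 15 D1 libraries lay above every D2 library. That call was lost in 3 alternatives: the difference was 0.21 within EM libraries (adjusted p = 0.220) and with the name code as a covariate (adjusted p = 0.142), and 0.25 with the cortical marker sum as a covariate (adjusted p = 0.612). In ventral striatum D1 and D2 differed by 0.20 (SE 0.10, adjusted p = 0.0864), which was called only when libraries were scaled to reads in listed genes (0.31, adjusted p = 0.00735). Sort1 lies at chr3:108284082-108361511 on the plus strand; 1 exon of the antisense gene Gm12523 overlaps it, and since the protocols do not state that strand was kept, reads of the pair cannot be told apart. An antisense gene, Gm45346, also overlaps 2 exons of Bdnf; it was not analysed here.

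Ngfr, the p75 receptor, had its highest median levels in the D2 libraries and its lowest in cortex. D2 ventral libraries ran from 0.127 to 2.28 CPM with a median of 1.06 (1.13 ± 0.64, n = 14), and D2 dorsal libraries from 0 to 1.24 CPM with a median of 0.539 (0.60 ± 0.41, n = 16). D1 ventral libraries ran from 0 to 1.95 CPM with a median of 0.442 (0.50 ± 0.46, n = 15), D1 dorsal libraries from 0 to 0.844 CPM with a median of 0.152 (0.23 ± 0.24, n = 15), and prefrontal libraries from 0 to 0.395 CPM with a median of 0.0651 (0.11 ± 0.12, n = 19). All groups overlapped. The gene is on the minus strand at chr11:95568818-95587735.

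Ngfr failed the filter in every comparison. Without it, Ngfr was lower in D1 than in D2 libraries, with differences of -0.55 in dorsal striatum (SE 0.17, adjusted p = 0.0257) and -0.69 in ventral striatum (SE 0.21, adjusted p = 0.0107), and lower in prefrontal cortex than in D1 ventral striatum (-0.65, SE 0.14, adjusted p = 0.000162). Prefrontal cortex and D1 dorsal striatum were not called different (-0.22, adjusted p = 0.126), nor were they in any alternative run (adjusted p = 0.0617 to 0.1295). The dorsal striatum call was lost in 4 alternatives: within EM libraries (-0.52, adjusted p = 0.148), with the name code (-0.52, adjusted p = 0.181) or the cortical marker sum (-0.37, adjusted p = 0.839) as a covariate, and with edgeR (-1.40, adjusted p = 0.0570). The ventral call was lost within EM libraries (-0.62, adjusted p = 0.0903) and with the cortical marker sum as a covariate (-0.57, adjusted p = 0.313). Dorsal minus ventral differences were -0.42 in D1 (adjusted p = 0.0718) and -0.56 in D2 (adjusted p = 0.0579), neither called. Both were called with the name code (-0.48, adjusted p = 0.0279 in D1 and -0.60, adjusted p = 0.0498 in D2) or the cortical marker sum (-0.57, adjusted p = 0.0207 and -0.65, adjusted p = 0.0203) as a covariate, and that in D2 also without D2 ventral striatum replicate 2 (-0.66, adjusted p = 0.0170). The summed CPM of 3 cholinergic interneuron markers (Chat, Slc5a7, Lhx8) had the order of Ngfr: medians were 12.2 in D2 ventral, 6.32 in D2 dorsal, 1.34 in D1 ventral, 0.751 in D1 dorsal and 0.249 CPM in prefrontal libraries, where Lhx8 had a median of 0. The sum ran from 6.63 to 15.07 CPM in D2 ventral and from 2.89 to 14.2 in D2 dorsal libraries, and reached at most 2.69 and 1.59 CPM in the D1 striatal groups. The part of these markers in the Ngfr differences was not tested beyond the relations that follow. Within groups Ngfr and that sum had correlations from -0.09 (D2 dorsal striatum) to 0.46 (prefrontal cortex), with adjusted permutation p-values of 0.177 to 0.786, so none passed.

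Nradd, a relative of p75, had a mean of at most 0.0361 CPM in any group.

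Of 8 other neurotrophin ligands and receptors 4 were tested in each comparison, all of them sortilin relatives, and they divided by region: 4 of 4 were called between dorsal and ventral striatum for D1, where 34.6% of all genes were called, and for D2, where 28.5% were, 2 in each direction. Sorcs2, which pairs with p75 as a precursor receptor, had the higher level in dorsal striatum, at 18.6 ± 7.03 against 8.43 ± 1.68 CPM in D1 (0.98, SE 0.19, adjusted p = 0.000155) and 24.3 ± 6.69 against 9.30 ± 3.08 CPM in D2 (1.34, SE 0.17, adjusted p = 9.39e-08). Sorcs1 was also higher in dorsal striatum, by 0.33 in D1 and 0.53 in D2. Sorcs3 was lower in dorsal striatum, by -0.997 in D1 (SE 0.11, adjusted p = 3.03e-09) and -0.56 in D2 (SE 0.16, adjusted p = 0.00946), and all 15 D1 ventral libraries lay above every D1 dorsal one. Sorl1, a sorting receptor that binds TrkB and the amyloid precursor protein, was lower in dorsal striatum by -0.46 in D1 and -0.69 in D2, and all 14 D2 ventral libraries lay above every D2 dorsal one. In prefrontal cortex Sorl1 and Sorcs3 were higher than in either D1 striatal group, by 0.95 and 1.48 over dorsal and by 0.48 and 0.48 over ventral striatum, and Sorcs1 and Sorcs2 were lower than in both. Between D1 and D2, 0 of 4 were called in dorsal striatum at an adjusted p under 0.05 by limma or edgeR, with 1 unadjusted limma p under 0.05 (Sorcs2, 0.0417), and 2 of 4 in ventral striatum, where Sorcs3 was higher in D1 (0.72, adjusted p = 1.70e-05) and Sorl1 lower (-0.32, adjusted p = 0.00553). Of all genes, 25.9% and 47.7% were called in these 2 comparisons.

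**Figure D3:**
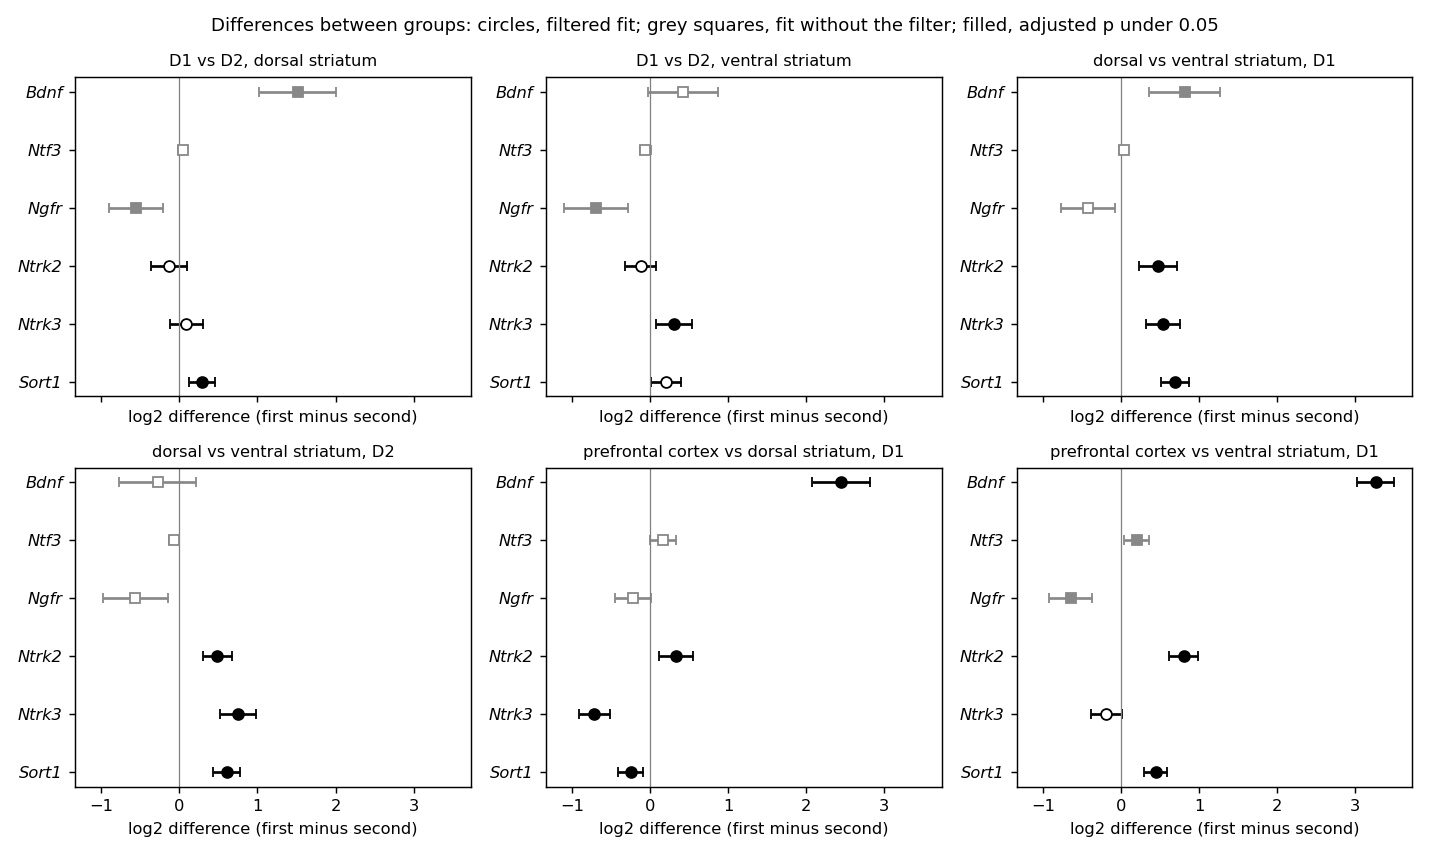
Log2 differences (x axes, first group minus second, on log2(CPM + 0.5)) of the 6 genes in the 6 comparisons, with bars of 2 SE; black circles come from the filtered fit, grey squares from the fit without the filter, and filled symbols have an adjusted p under 0.05. Ntrk2, Ntrk3 and Sort1 lie right of 0 in both dorsal against ventral panels, and Bdnf lies at 2.44 and 3.26 in the prefrontal panels.

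By comparison, the 3 genes that passed the filter in striatum were all called higher in dorsal than in ventral striatum for both promoters. For D1, 3 of 3 were called, beside 34.6% of the 11332 genes in that fit, with 10.1% called in the dorsal direction. For D2, 3 of 3 were called, beside 28.5% in either direction and 7.93% in the dorsal direction among 11187 genes. The median difference of all genes tested was -0.12 in both, and the calls of all 3 genes held in every alternative run. The median of the 3 genes was 0.53 in D1 and 0.60 in D2. The summed CPM of 6 markers of oligodendrocytes and their precursors, none at a median of 0 in any group, was also higher in dorsal than in ventral striatum, with medians of 72.9 (51.3 to 169.7) against 46.6 (42.7 to 75.2) in D1 and 113 (69.2 to 203) against 82.2 (54.8 to 199.99) in D2. Of these markers 3 of 3 tested were called higher in D1 and 1 of 5 in D2. The summed CPM of 4 GABA interneuron markers had medians of 28.7 against 13.8 in D1 and 8.20 against 14.3 in D2. These directions were opposite for the 2 promoters, and 1 marker (Vip) had a median of 0 in D2 dorsal striatum. Pvalb was higher in dorsal striatum for both, at 4.12 against 1.42 CPM in D1 and 2.54 against 0.550 in D2. The medians of Sst, Npy and Vip were higher in dorsal striatum in D1 and lower there in D2. The part of these markers in the receptor differences was not tested. The D1 and D2 differences between regions did not differ by an interaction test, with -0.01 for Ntrk2, -0.22 for Ntrk3 and 0.09 for Sort1 (adjusted p = 0.982, 0.544 and 0.790); 2.64% of all genes were called in that test and 0 of the 4 neurotrophin genes tested, by limma or by edgeR, while 1 (Bdnf) had an unadjusted limma p under 0.05 (0.00171).

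Between D1 and D2, mean levels of Ntrk2, Ntrk3 and Sort1 differed by no more than 1.24 times in either region, while mean Ngfr, which failed the filter, was 2.63 times higher in D2 dorsal and 2.24 times higher in D2 ventral striatum. In dorsal striatum 1 of 3 genes tested was called (Sort1) beside 25.9% of all genes, and in ventral striatum 1 of 3 (Ntrk3) beside 47.7%. In the fits without the filter the calls of all genes came to 17.2% (dorsal) and 29.9% (ventral) for D1 against D2, and to 22.8% (D1) and 18.6% (D2) for dorsal against ventral striatum. Of the 6 genes, 3 were called in that fit in dorsal striatum (Bdnf and Sort1 higher in D1, Ngfr lower) and 2 in ventral striatum. Of the 4 genes tested between prefrontal cortex and D1 dorsal striatum, 4 were called beside 54.8% of all genes, with Bdnf and Ntrk2 higher and Ntrk3 and Sort1 lower in cortex. Against D1 ventral striatum 3 of 4 were called, all higher (Bdnf, Ntrk2, Sort1). Of all genes, 62.8% were called there in either direction and 27.7% as higher in prefrontal cortex. Bdnf passed the filter in both comparisons through the prefrontal group, since 19 of 19 prefrontal libraries reached 1 CPM but 12 of 15 D1 dorsal and 2 of 15 D1 ventral libraries did, so its place in both counts follows in part from the filter. Without the filter, 41.9% and 47% of all genes were called in these comparisons. The prefrontal comparisons set cortical against striatal neurons, and both share the prefrontal libraries.

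Which partner, ligand or receptor, was the one carried on ribosomes was compared per kb of exon, since longer genes collect more reads. In all 79 libraries Ntrk2 was above Bdnf, and Ntrk3 was above Ntf3. The median Ntrk2 level was 4.40, 5.11, 3.16, 3.57 and 5.36 CPM per kb in D1 dorsal, D2 dorsal, D1 ventral, D2 ventral and prefrontal libraries. The median Bdnf level was 0.272, 0.0337, 0.109, 0.0527 and 1.83 CPM per kb in the same order. In each library Bdnf per kb was thus a percentage of Ntrk2 per kb, with medians of 6.56%, 0.696%, 3.34%, 1.36% and 34.2%. The receptor exceeded the ligand by the widest margin in the D2 groups and by the narrowest in prefrontal cortex. The highest striatal percentage was 66.2%, in the D1 dorsal library with 9.19 CPM of Bdnf, and the lowest prefrontal one was 21.6%.

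Per kb of exon the order of the genes was nearly fixed. Sort1 came first and Ntrk2 second in all 79 libraries, with Sort1 medians of 15.5, 12.8, 9.60, 8.83 and 12.9 CPM per kb. The gap between these 2 genes depended on the length used, since Ntrk2 has 15.8 kb of exon. Per kb of the longest coding sequence the medians of Sort1 and Ntrk2 were 41.6 and 28.3 CPM in D1 dorsal, 34.4 and 32.9 in D2 dorsal, 25.7 and 20.3 in D1 ventral, 23.7 and 22.9 in D2 ventral and 34.6 and 34.5 in prefrontal libraries. In CPM without a length, Sort1 fell to 61.9% of Ntrk2 in the lowest D2 ventral library, 79.7% in the lowest prefrontal one and 96.4% in the lowest D2 dorsal one. Per kb of exon, Ntrk3 came next in 14 of 15 D1 dorsal, 16 of 16 D2 dorsal, 15 of 15 D1 ventral and 13 of 14 D2 ventral libraries. In prefrontal cortex Bdnf came next in 19 of 19 libraries, ahead of Ntrk3, whose median there was 0.677 CPM per kb. Bdnf also came next in the 1 remaining D1 dorsal library, and Ngfr in the 1 remaining D2 ventral library.

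**Figure D4:**
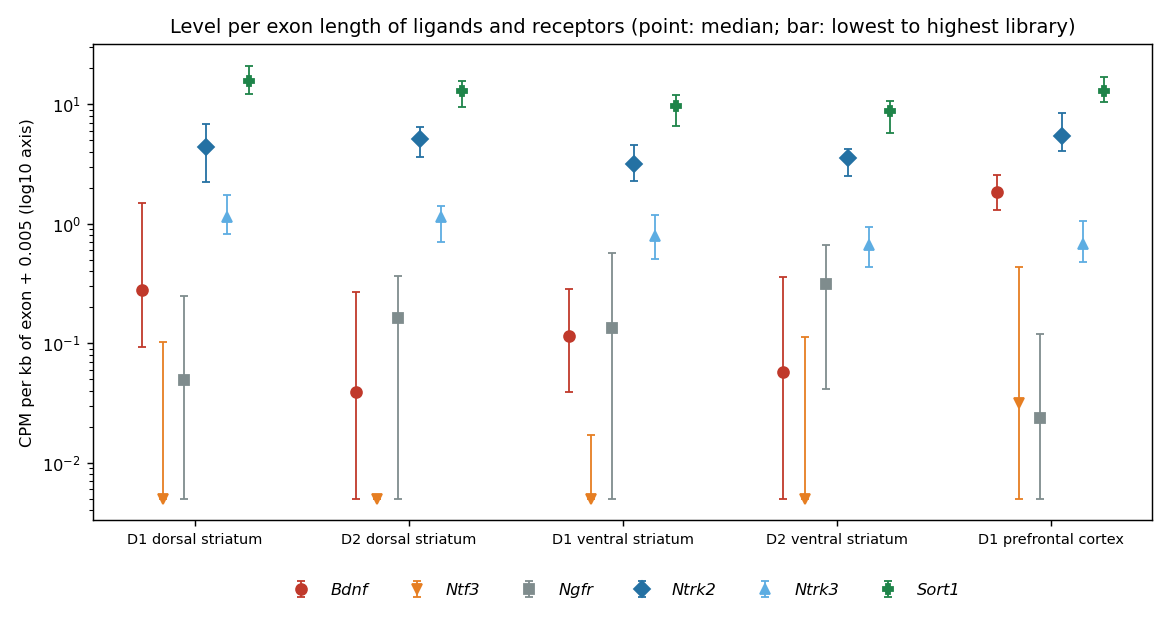
CPM per kb of exon plus 0.005 (y axis, log10) of the 6 genes in the 5 groups; points are medians, and bars run from the lowest to the highest library. Sort1 and Ntrk2 lie at the top in each group, and the Bdnf median is 0.0337 to 0.272 CPM per kb in the striatal groups and 1.83 in prefrontal cortex, above Ntrk3.

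The Trk receptors signal through adaptors, and 20 of 22 adaptor and effector genes were tested. Between dorsal and ventral striatum 11 were called in D1 (2 higher, 9 lower in dorsal) and 7 in D2 (2 higher, 5 lower), beside 34.6% and 28.5% of all genes. The median of the list was -0.25 and -0.12, beside -0.12 for all genes in both. Gab2, a docking protein of tyrosine kinase signalling, was lower in dorsal striatum, at 4.43 ± 1.23 against 13.3 ± 1.89 CPM in D1 (-1.52, SE 0.11, adjusted p = 2.56e-13) and 3.58 ± 1.38 against 9.58 ± 2.71 CPM in D2 (-1.34, SE 0.17, adjusted p = 8.05e-08). Rapgef1, an exchange factor that activates Rap1, was lower in D1 dorsal striatum (-0.39), and Sh2b3 was lower in D2 dorsal striatum (-0.67).

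Between D1 and D2 the adaptors gave 5 calls of 20 in dorsal striatum (2 higher, 3 lower in D1) and 12 of 20 in ventral striatum (7 higher, 5 lower), beside 25.9% and 47.7% of all genes. Gab1, a relative of Gab2, was lower in D1, at 4.05 ± 2.04 against 7.88 ± 2.73 CPM in dorsal (-0.93, SE 0.20, adjusted p = 0.000841) and 4.13 ± 1.21 against 8.25 ± 2.45 CPM in ventral striatum (-0.91, SE 0.14, adjusted p = 3.82e-06). Dok5 was higher in D1 dorsal striatum, at 9.81 ± 3.31 against 4.52 ± 1.61 CPM (1.04), and Shc4 was higher in D1 ventral striatum, at 8.68 against 5.23 CPM (0.73, SE 0.15). In prefrontal cortex 9 of 20 were called against D1 dorsal striatum (7 higher, 2 lower) and 8 of 20 against D1 ventral striatum (1 higher, 7 lower), beside 54.8% and 62.8% of all genes. Gab2 was higher than in D1 dorsal striatum by 1.51, Dok5 was higher than in both (0.81 and 1.14), and Sh2b1 was lower than in D1 ventral striatum (-0.50).

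Genes that cleave precursors or sort them to the regulated pathway were partly tested, since 6 or 7 of 12 passed the filter. Dorsal striatum was higher for Pcsk2, prohormone convertase 2, at 94.4 against 57.1 CPM in D1 (0.72, SE 0.07, adjusted p = 5.01e-10) and 109 against 78.2 CPM in D2 (0.48, SE 0.08, adjusted p = 9.61e-06). Cpe, carboxypeptidase E, which also sorts the BDNF precursor, was higher there by 0.87 in D1 and 0.90 in D2. In all, 4 of 7 were called in D1 (3 higher, 1 lower) and 4 of 6 in D2 (4 higher), beside 34.6% and 28.5% of all genes. Pcsk2 was lower in D1 than in D2, by -0.21 in dorsal and -0.44 in ventral striatum, where 1 of 6 (lower) and 2 of 6 (1 in each direction) were called, beside 25.9% and 47.7% of all genes. In prefrontal cortex 4 of 7 were called against each D1 striatal group, 3 higher and 1 lower against dorsal and 4 higher against ventral striatum; Cpe was higher by 0.47 and 1.34. Of all genes, 54.8% and 62.8% were called there.

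Of 13 partners and processing enzymes of p75, 12 were tested against prefrontal cortex. The Nogo receptor Rtn4r, which forms a complex with p75 and Lingo1, was at 19.5 ± 5.78 CPM in prefrontal cortex against 2.39 ± 1.00 in D1 dorsal and 1.01 ± 0.53 in D1 ventral striatum, log2 differences of 2.85 (SE 0.17, adjusted p = 5.66e-18) and 3.75 (SE 0.15, adjusted p = 4.35e-24). Lingo1 was at 179 ± 28.4 CPM against 64.4 and 44.9 ± 8.61, differences of 1.49 and 1.99. In all, 6 of 12 were called against dorsal (3 higher, 3 lower) and 8 of 12 against ventral striatum (3 higher, 5 lower), beside 54.8% and 62.8% of all genes. Lingo1 of D1 libraries also exceeded that of D2, by 0.91 in dorsal and 0.84 in ventral striatum, where 7 of 12 (4 higher, 3 lower) and 6 of 11 (2 higher, 4 lower) were called, beside 25.9% and 47.7% of all genes. Arhgdia, a GDP dissociation inhibitor that p75 binds, was higher in D1 ventral striatum (0.77), and Traf6, an adaptor of p75, was lower in D1 dorsal striatum (-0.42). Between striatal regions 5 of 12 were called in D1 (3 higher, 2 lower in dorsal) and 3 of 11 in D2 (1 higher, 2 lower), beside 34.6% and 28.5% of all genes, and Irak1 and Maged1 were lower in dorsal striatum in D2 (-0.62 and -0.41).

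Of 10 genes for trafficking and turnover of TrkB and BDNF, all tested, Hap1 showed the widest difference between striatal regions. Hap1, the huntingtin-associated protein that carries BDNF vesicles and Trk receptors, was at 10.8 ± 3.80 CPM in D1 dorsal against 48.8 ± 7.08 in D1 ventral striatum (-2.19, SE 0.14, adjusted p = 5.20e-15) and at 7.07 ± 2.25 against 29.1 ± 6.35 CPM in D2 (-1.998, SE 0.14, adjusted p = 2.04e-13). The direction was opposite to that of Ntrk2. Prefrontal cortex was at 10.8 ± 1.89 CPM, lower than D1 ventral striatum by -2.12. The D1 level of Hap1 exceeded the D2 level by 0.56 in dorsal and 0.75 in ventral striatum. Slitrk5, a TrkB coreceptor in striatum, was higher in D2 dorsal than in D2 ventral striatum (0.47), and Cbl, a ubiquitin ligase of Trk receptors, was lower in D1 dorsal than in D1 ventral striatum (-0.34). In all, 3 of 10 were called in each promoter group between regions (1 higher, 2 lower), 5 of 10 for D1 against D2 in dorsal (3 higher, 2 lower) and 6 of 10 in ventral striatum (3 in each direction). Of all genes, 34.6% (D1) and 28.5% (D2) were called between regions and 25.9% (dorsal) and 47.7% (ventral) between D1 and D2, so the regional counts were near the background. The phosphatase gene Ptprf had higher D1 than D2 levels, by 0.78 and 0.71. In prefrontal cortex 5 of 10 were called against dorsal (3 higher, 2 lower) and 9 of 10 against ventral striatum (3 higher, 6 lower), with Nedd4l lower by -1.01 and -0.95 and Ptprs higher than in dorsal striatum by 0.88; 54.8% and 62.8% of all genes were called there.

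Among the 10 regulators of Bdnf transcription, those called between striatal regions were lower in dorsal than in ventral striatum. They were 4 of 9 tested in D1 and 4 of 10 in D2, beside 34.6% and 28.5% of all genes. Lower in dorsal striatum, the more frequent direction, were 24.5% and 20.6% of all genes. The regulators called included Crtc1 (-0.56) in D1 and Creb1 (-0.39) and Mef2c (-0.35) in D2. Between D1 and D2, 6 of 10 were called in ventral striatum, 3 in each direction, and in dorsal striatum 1 of 9 (Creb1), beside 47.7% and 25.9% of all genes.

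The genes whose levels followed each member over the 79 libraries were named by Pearson's r of log2(CPM + 0.5) among 12333 genes, as a description. Libraries share groups and depth, so r after subtracting each group's mean is given too. For Bdnf these were Olfm1 (r = 0.96, and 0.68 within groups), Dkk3 (0.95 and 0.56) and 9130024F11Rik (0.95 and 0.52), and the median of Olfm1 was 317 CPM in prefrontal cortex and 14.1 to 47.4 CPM in striatum. For Ntrk2 they were Slc39a10, Fam189a1 and Nfasc, with r of 0.82, 0.82 and 0.81 and 0.63, 0.61 and 0.61 within groups. For Ntrk3 they were Adam23, Itpr1 and Kcnt1, with r of 0.83, 0.83 and 0.82 and 0.64, 0.61 and 0.63 within groups. For Sort1 they were Dagla, Slc8a2 and Pld3, with r of 0.89, 0.87 and 0.85 and 0.79, 0.66 and 0.61 within groups. Ntf3 and Ngfr were too low for this.

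The receptors also varied together from library to library within groups. After group means were subtracted, r was 0.56 for Ntrk2 with Ntrk3, 0.64 for Ntrk2 with Sort1 and 0.64 for Ntrk3 with Sort1 over 79 libraries, which share library totals. Bdnf had r of -0.19, -0.24 and -0.10 with Ntrk2, Ntrk3 and Sort1 on the same scale.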

How the data were processed

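The authors deposited CPM, read counts scaled to a common library total, for 25899 gene symbols in 79 libraries of ribosome-attached polyA RNA; 0 value columns could not be tied to a library by its title. Per the labels' protocols, cDNA was amplified with Ovation RNA-Seq V2 and read in pairs; whether strand was kept is not stated. The submitters' processing notes name Trim Galore 0.4.2, cutadapt 1.9.1, FastQC, HISAT2 and the build GRCm38; the counting program and annotation are not given in the sources used here. The deposited CPM were whole multiples of 1 read in each column (100% of values within 0.01 reads), so reads could be recovered. Columns summed to 31.0 to 40.2% of the total to which the authors scaled. No molecular identifiers are described, so depth bounds counting error only. Gene positions and exon lengths (exons of protein-coding transcripts) are from GENCODE M21, GRCm38, and promoters from RefSeq (4 of 6 genes matched).

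Fits with limma 3.58.1 in R 4.3.3 (trend, two-sided) used log2(CPM + 0.5) of the groups compared and no others. A gene was tested when it reached 1 CPM in a number of libraries no smaller than the smaller group. P-values were Benjamini-Hochberg adjusted over all genes tested, and called means an adjusted p under 0.05. Ntf3 and Ngfr, and Bdnf in the comparisons of 2 striatal groups, failed that filter and were read from a fit without it; Bdnf passed it in the interaction fit. edgeR 4.0.16 (quasi-likelihood, TMM) on recovered reads was an alternative; it called 2966 genes for D1 against D2 in dorsal striatum, where limma called 2871. Scripts were tested on simulated data. Other alternatives were the pseudocount, the scaling, covariates (name code, summed CPM of a column, number of males, cortical marker sum), EM libraries only, and libraries left out. Correlations within groups used 100000 permutations, two-sided.

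The genes and gene lists were chosen with earlier results of these data known. Named were the 6 genes, the 3 genes most correlated with each of 4, the other neurotrophin ligands and receptors (8 listed), and per pathway list and comparison no more than 2 called genes, those with the largest differences and 5 CPM or more on average where they were higher. Some genes of these lists count in the totals and are not reported here by name. Replicate numbers were given in accession order. Library names often run in consecutive numbers across regions, but whether the regions of 1 mouse went into different libraries is not stated, and p-values measure the spread between these pooled libraries.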

Additional observations from a re-analysis of the deposited data

Results flagged for a closer look

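In 2 genes of the pathway lists the D1 minus D2 difference itself differed between the striatal regions by the interaction test (limma, adjusted over all genes). These were 1 of 12 tested partners of p75 and 1 of 10 tested regulators of Bdnf transcription; 0 of 20 adaptors, 0 of 10 trafficking genes and 0 of 7 processing genes were called, beside 2.64% of all genes, so the number of calls is about what that share gives. Rtn4r, the Nogo receptor, had a D1 minus D2 difference larger in dorsal than in ventral striatum by 1.19 (SE 0.33, adjusted p = 0.0338). In dorsal striatum it was at 2.39 ± 1.00 CPM in D1 (n = 15) and 0.485 ± 0.446 CPM in D2 libraries (n = 16). In ventral striatum Rtn4r failed the filter, and its D1 minus D2 difference there is not given. Its place in the interaction fit thus follows in part from its level in D1 dorsal striatum. The log2(CPM + 0.5) scale also understates differences at such low CPM. Mef2c differed between the regions in the same direction by 0.47 (SE 0.11, adjusted p = 0.00699): D1 minus D2 was 0.18 in dorsal striatum (133.6 ± 15.2 against 118 ± 17.1 CPM, not called) and -0.29 in ventral striatum (122 ± 9.83 against 152 ± 32.5 CPM, called). The cortical marker sums were higher in D1 than in D2 in both regions, at medians of 101 and 8.17 CPM in dorsal striatum, the direction of both genes there, and at 66.0 and 11.3 CPM in ventral striatum, opposite to the direction of Mef2c. Their part in these differences was not tested.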

How the results depend on the processing

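Of the values for single genes, 428 kept their direction and side of the threshold under an alternative, 14 lost a call, 14 gained one and 6 reversed. The dorsal over ventral calls of Ntrk2, Ntrk3 and Sort1 held in every alternative run, with ranges of 0.43 to 0.60, 0.51 to 0.65 and 0.66 to 0.80 in D1 and 0.43 to 0.64, 0.67 to 0.90 and 0.54 to 0.74 in D2, and so did Bdnf in prefrontal cortex over D1 dorsal (2.18 to 2.74) and D1 ventral striatum (2.82 to 3.93). No reversal was of a call in the filtered fit. With the cortical marker sum as a covariate, Bdnf D1 minus D2 without the filter became -0.17 in dorsal and -0.47 in ventral striatum, and the Ntrk2 interaction became 0.0175. Leaving out 1 library put that interaction between -0.0144 (without D1 ventral striatum replicate 4) and 0.0572 (without D1 dorsal striatum replicate 13); the Ntrk2 difference in ventral striatum became 0.11 with the summed CPM of each column as a covariate, and the Ngfr interaction became -0.26 with edgeR. The cause was not tested. The number of genes called for D1 against D2 in dorsal striatum was 3 without the filter (6 tested), and 0 with the name code or the cortical marker sum as a covariate, where the share of all genes called fell from 25.9% to 15% and 1.33%. In ventral striatum it was 2 without the filter and 2 when scaled to reads in listed genes, and 0 when either the summed CPM of each column or the cortical marker sum was a covariate, where that share fell from 47.7% to 10.7% and 13%. For prefrontal cortex against D1 ventral striatum it was 5 without the filter, and for the interaction it was 1 (Bdnf) with a pseudocount of 1, with median-ratio scaling and with the name code as a covariate. Scaling to reads in listed genes moved the median of all genes from 0.02 to 0.13 for D1 against D2 in ventral striatum, with 3702 called higher and 1897 lower against 2751 and 2692, and median-ratio scaling moved it from -0.12 to -0.01 for dorsal against ventral striatum in D1, with 1663 higher and 1639 lower against 1144 and 2774, and from -0.12 to 0.01 in D2, with 1399 and 1334 against 887 and 2302. With edgeR Ntf3 was called in 5 comparisons where limma did not call it, at 2.87 and -2.46 for D1 against D2 in dorsal and ventral striatum, -3.55 for dorsal against ventral striatum in D2, 2.28 for prefrontal cortex against D1 dorsal striatum and 5.37 for the interaction (adjusted p = 0.00477 to 0.0364). These values rest on groups at or near 0 reads and depend on the prior count. No paired analysis was made, since the labels tie no libraries to the same mice, though names often run in consecutive numbers across regions. If such libraries share mice, the fits between regions ignore that pairing. Depth limits Ntf3, Ngfr and striatal Bdnf, where 3 reads are worth 0.0373 to 0.14 CPM.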
